A study of Drosophila melanogaster with 6 samples.

Results

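Lipid storage, synthesis and mobilisation are followed here through 10 genes, of 16196 counted, in RNA from whole Drosophila melanogaster larvae. They were taken from a list, chosen with earlier results of these data known. The list held the droplet coat genes Lsd-1 and Lsd-2 (storage), FASN1, FASN2, ACC and mdy (synthesis), and bmm, Lip3, Lip4 and AkhR (mobilisation). All 10 were found in the annotation with all of their transcripts in the files, and averaged over the 6 libraries each reached 1 CPM (count per 1000000 counts) or more. The larvae were at the 3rd instar, on day 4 after egg laying. In the strains C1, C2, C3, C4 and C5 a Tubulin-Gal4 driver, active in nearly all tissues, was combined with a single UAS copy of a newt gene, a different one in each strain, integrated by phiC31 integrase at an attP site. The control larvae carried the same driver, in the genotype written Tublin Gal4/S-T in the labels, and no UAS newt gene is named for them, although their sample title calls them wild type. How many larvae went into a library is not given in the sources used here. Each genotype had 1 library of between 75131812 and 86975388 counts (84269592 in the control), so no difference below has a replicate check or a p-value, and every interval covers counting error only.

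Larval fat is kept as triacylglycerol in droplets, mainly in the fat body, the insect counterpart of liver and adipose tissue. Acetyl-CoA carboxylase and fatty acid synthase make fatty acids, acyltransferases join them to glycerol, and perilipins coat the droplet and govern access of lipases to it. Between meals, adipokinetic hormone from the corpora cardiaca acts on its receptor in the fat body, and lipases release the stored fat. 3rd instar larvae feed and build up this store before the fast of metamorphosis.

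Marker levels of several tissues differed between the libraries. All 8 fat body markers were present in every library; their summed level was 128500 CPM in C1, 148900 CPM in C2, 96910 CPM in C3, 52340 CPM in C4, 150400 CPM in C5 and 94180 CPM in the control. The 15 male germline markers summed to between 9.29 and 14.3 CPM in 4 of the strains, where between 3 and 5 of them were at 0, but to 2693 CPM in C4, the remaining strain, and 1258 CPM in the control, where none was at 0. Midgut markers (8 genes) summed to between 760 CPM in C4 and 2398 CPM in C1, with 1017 CPM in the control. Muscle markers (7 genes) reached 18680 CPM in C2 and 1202 CPM in C3, against 4841 CPM in the control. Salivary gland markers (6 genes) summed to 45840 CPM in C2, 37080 CPM in C5 and 800 CPM in C3, against 18690 CPM in the control. Haemocyte markers (6 genes) summed to between 112 CPM in C3 and 545 CPM in C2, with 211 CPM in the control. In RNA of whole larvae, fewer cells of a type and less RNA per cell cannot be told apart.

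Per transcript length, the droplet coat genes were by far the most abundant of the set. Measured in RPKM (reads per kilobase of transcript per 1000000 reads, the authors' values summed over the transcripts of a gene), Lsd-1 ranked first in all 6 libraries at 186 to 1006 RPKM. Lsd-2 ranked second in each at 63.5 to 172 RPKM. mdy took rank 3 or 4 at 14.7 to 37.7 RPKM and bmm a rank between 3 and 7 at 11.8 to 25.3 RPKM. FASN1 lay at 7.90 to 19.3 RPKM, ACC at 4.25 to 10.6 RPKM and AkhR at 4.68 to 21.7 RPKM. Lip4 ranked between 5 and 9 (1.96 to 16.9 RPKM), Lip3 was at rank 8 or 9 (1.25 to 8.05 RPKM), and FASN2 was last in every library at 0.0485 to 0.774 RPKM.

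The middle gene of the set varied more between libraries than the middle gene of all those measured. The highest library exceeded the lowest by a median of 4.60-fold over the 10 genes on the CPM scale, from 1.94-fold for bmm to 17.6-fold for FASN2, while the median over 11599 measured genes was 1.93-fold (quartiles 1.44 and 4.86). The 10 genes were chosen with earlier results of these data known, and the part of that choice in their wider range was not tested.

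**Figure D1:**
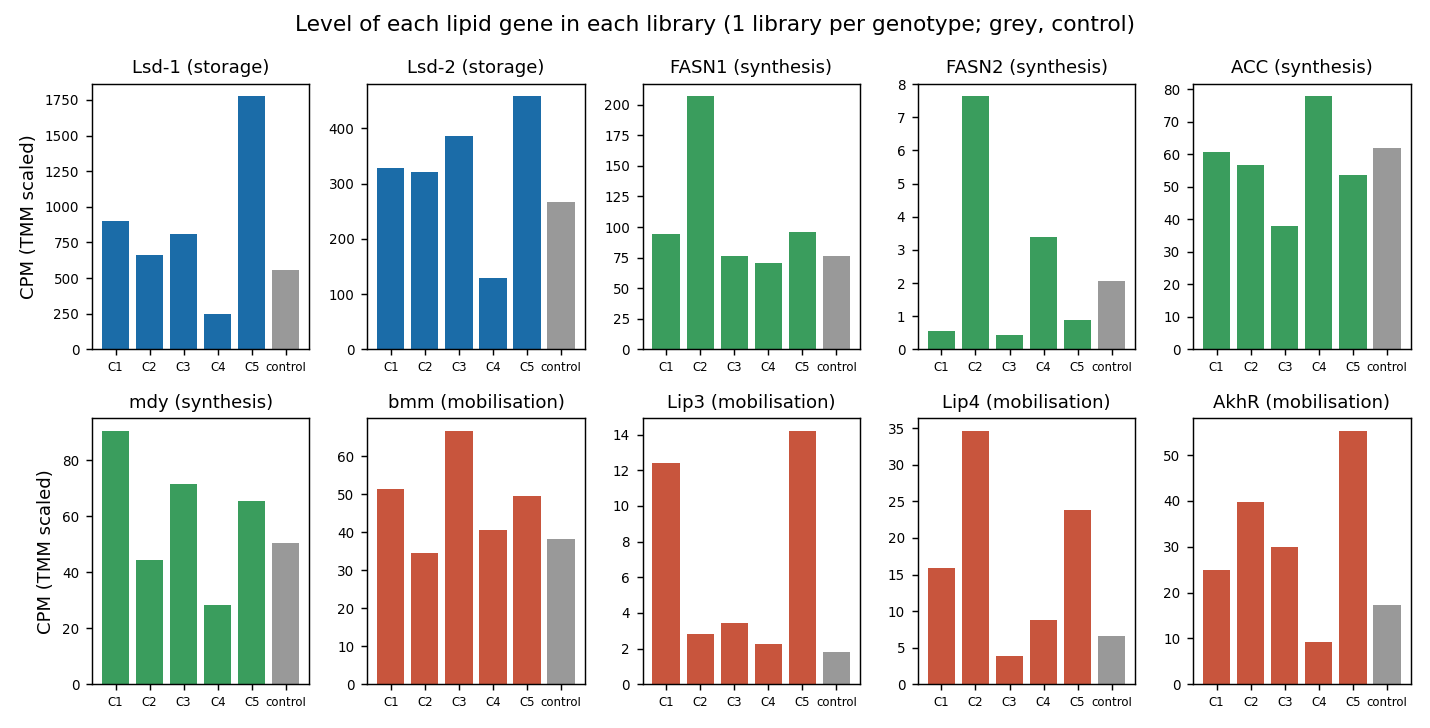
Level of each of the 10 lipid genes in CPM (counts per 1000000 on TMM-scaled totals, vertical axes from 0) in C1 to C5 and, in grey, the control, 1 library per bar. The panels show the tallest Lsd-1, Lsd-2, Lip3 and AkhR bars in C5, the tallest FASN1, FASN2 and Lip4 bars in C2, and the lowest perilipin and AkhR bars in C4.

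Lsd-1 and Lsd-2 encode the fly perilipins. Lsd-1 (FBgn0039114, chromosome 3R, 23763857 to 23766662, plus strand, dm6) sits on droplets and is the one through which hormone-stimulated lipolysis acts. Its level was 904 CPM in C1, 664 CPM in C2, 809 CPM in C3, 251 CPM in C4, 1775 CPM in C5 and 559 CPM in the control. C5 thus stood 1.96-fold above the next library, C1, and C4 stood alone below the control. The log2 ratio to the control was 1.67 in C5 (exact 95% binomial interval 1.65 to 1.68) and -1.16 in C4 (-1.18 to -1.13). Exons of Lsd-1 overlap those of CG10214 on the other strand, a gene that stayed between 7.74 and 9.98 CPM in all 6 libraries.

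Lsd-2 (FBgn0030608, X, 15069127 to 15076220, minus strand) shields the store from lipases. Its level was 328 CPM in C1, 320.0 CPM in C2, 386 CPM in C3, 129 CPM in C4, 458 CPM in C5 and 266 CPM in the control. The extremes were those of Lsd-1, C5 and C4, but the range was narrower, 3.56-fold against 7.08-fold. Against the control the log2 ratio was 0.78 in C5 (0.76 to 0.81) and -1.05 in C4 (-1.08 to -1.02). Both perilipins were above the control in C1, C3 and C5 and below it in C4 under TMM, DESeq2, plain CPM, RPKM and ribosomal protein scaling (scaled on fat body markers, Lsd-2 in C1 came to -0.15), whereas in C2 their ratios of 0.25 and 0.27 turned to -0.05 and -0.03 with plain CPM and to -0.02 and -0.01 with ribosomal protein scaling. The ratio of Lsd-1 to Lsd-2 in RPKM, which no scaling changes, was highest in C5 (5.85) and C1 (4.15) and lay between 2.92 and 3.19 in C2, C3 and C4, against 3.15 in the control.

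Fatty acid synthesis did not move as a block. FASN1 (FBgn0283427, 2L, 3056598 to 3068177, plus strand) encodes the main fatty acid synthase of the fat body. It stood at 94.6 CPM in C1, 207 CPM in C2, 76.7 CPM in C3, 70.2 CPM in C4, 96.0 CPM in C5 and 76.4 CPM in the control. C2 was the sole library far from the rest, with a log2 ratio to the control of 1.44 (1.39 to 1.48), while C3 and the control differed by less than counting error. ACC (FBgn0033246, 2R, 7974115 to 7991862, minus strand), the carboxylase that supplies malonyl-CoA to the synthase, stood at 60.7 CPM in C1, 56.6 CPM in C2, 38.0 CPM in C3, 77.8 CPM in C4, 53.8 CPM in C5 and 62.0 CPM in the control. Its C3 library was lowest, at a log2 ratio of -0.71 (-0.77 to -0.64), and no library was 2-fold from the control. In C2, where FASN1 was 2.70-fold higher, ACC was at 0.914 of the control.

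FASN2 (FBgn0042627, 2L, 3043947 to 3056143, plus strand) ends 454 bases before FASN1 on the same strand. It is known from oenocytes, the lipid-processing cells below the cuticle, where it serves cuticular lipids rather than the fat store. It had 47 counts (0.566 CPM) in C1, 510 counts (7.63 CPM) in C2, 33 counts (0.434 CPM) in C3, 333 counts (3.38 CPM) in C4, 67 counts (0.893 CPM) in C5 and 190 counts (2.06 CPM) in the control. It was more than 2-fold lower in C1, C3 and C5 and higher in C2, and its level in C1 and C3 differed by less than counting error. The log2 ratios to the control were -1.87 in C1 (-2.36 to -1.40), 1.89 in C2 (1.64 to 2.14), -2.25 in C3 (-2.83 to -1.71) and -1.21 in C5 (-1.63 to -0.80). The 3 matched oenocyte markers, Cyp4g1, FarO and FASN3, did not follow this order, with summed levels of 299.5 CPM in C1, 130 CPM in C2, 84.6 CPM in C3, 127 CPM in C4, 183 CPM in C5 and 163 CPM in the control. In C2, where FASN1 and FASN2 were both highest, fat body markers were at 1.58 and muscle markers at 3.86 times the control. Salivary gland markers were at 2.45 and haemocyte markers at 2.58 times the control there. In C5 salivary gland markers were at 1.98 and haemocyte markers at 2.24 times the control, with FASN1 at 1.26 and FASN2 at 0.433 of it. The part of these tissues in the FASN1 and FASN2 results was not tested. FASN1 and FASN2 are paralogs, and whether the counting divided shared reads between them is not given in the sources used here.

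mdy (midway, FBgn0004797, 2L, 16816660 to 16826964, plus strand) encodes diacylglycerol acyltransferase 1, which makes triacylglycerol in its last step. Its level was 90.4 CPM in C1, 44.3 CPM in C2, 71.6 CPM in C3, 28.4 CPM in C4, 65.3 CPM in C5 and 50.5 CPM in the control. C1 was highest and C4 lowest, 3.18-fold apart, and the log2 ratios to the control of 0.84 (0.79 to 0.89) and -0.83 (-0.90 to -0.76) both stayed under 2-fold. Summed midgut markers were likewise highest in C1 (2.36 times the control) and lowest in C4 (0.747 of the control), and fat body markers were lowest in C4. Midgut markers were also at 2.21 times the control in C5, where mdy was at 1.29. Their median log2 ratio was 1.30 in C2 and -0.08 in C4, where mdy came to -0.19 and -0.83. The part of either tissue in the result was not tested.

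The central fat body lipase had the narrowest range of the 10 genes on the CPM scale, 1.94-fold, but not when scaled on fat body markers, where it ranged 3.34-fold and Lsd-2 1.86-fold. bmm (brummer, FBgn0036449, 3L, 14776496 to 14786412, minus strand) is the fly adipose triglyceride lipase, which starts the breakdown of droplet fat. It stood at 51.3 CPM in C1, 34.5 CPM in C2, 66.7 CPM in C3, 40.5 CPM in C4, 49.6 CPM in C5 and 38.2 CPM in the control. C3 was highest, with a log2 ratio of 0.80 (0.74 to 0.86), and C1 and C5 differed by less than counting error. In C4, where both perilipins were more than 2-fold lower, bmm was at 1.06 times the control, so that the RPKM ratio of Lsd-1 to bmm was 9.94 in C4 against 23.4 in the control. In C5 the same ratio was 57.5.

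Lip3 and Lip4 belong to the acid lipase family, and in flies their RNA is known to rise on starvation. Lip3 (FBgn0023495, 3R, 13370240 to 13371904, minus strand) had 12.4 CPM in C1, 2.80 CPM in C2, 3.42 CPM in C3, 2.23 CPM in C4, 14.2 CPM in C5 and 1.82 CPM in the control. C1 and C5 stood apart from the other libraries, 1029 and 1065 counts against 168 to 260. Their log2 ratios to the control were 2.76 (2.53 to 3.01) and 2.96 (2.72 to 3.20), and C4 differed from the control by less than counting error. Summed midgut markers were also highest in those libraries, 2.36-fold in C1 and 2.21-fold in C5 over the control, beside 6.80-fold and 7.78-fold for Lip3. The median log2 ratio of these markers was 1.48 in C1 and 1.45 in C5, but also 1.30 in C2, where Lip3 was less than 2-fold higher. The part of the midgut in the result was not tested. The overlapping gene CheA87a on the other strand reached at most 0.233 CPM.

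Lip4 (FBgn0032264, 2L, 10527572 to 10531778, plus strand) had another order. Its level was 15.9 CPM in C1, 34.6 CPM in C2, 3.81 CPM in C3, 8.72 CPM in C4, 23.8 CPM in C5 and 6.65 CPM in the control, a 9.10-fold range. C2, C5 and C1 exceeded the control by 2-fold or more and C3 was the lowest library. Log2 ratios were 1.26 in C1 (1.12 to 1.40), 2.38 in C2 (2.25 to 2.51), -0.80 in C3 (-1.01 to -0.60) and 1.84 in C5 (1.71 to 1.97). Summed markers of 3 tissues were, like Lip4, highest in C2 and lowest in C3, but did not all follow it in C1 and C4. Haemocyte markers were highest in C2 (2.58 times the control), C5 (2.24) and C1 (1.87) and lowest in C3 (0.531), with 0.949 in C4. Salivary gland markers were at 2.45 times the control in C2, 1.98 in C5 and 0.0428 in C3, with 1.08 in C1 and 1.03 in C4. Muscle markers were at 3.86 times the control in C2, 1.22 in C5 and 0.248 in C3, with 0.986 in C1. The part of these tissues in the result was not tested.

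AkhR (FBgn0025595, 2L, 6711286 to 6716186, minus strand), the receptor for adipokinetic hormone, stood at 25.0 CPM in C1, 39.7 CPM in C2, 29.9 CPM in C3, 9.29 CPM in C4, 55.2 CPM in C5 and 17.4 CPM in the control. Like the perilipins it was highest in C5 and lowest in C4. The log2 ratios were 1.19 in C2 (1.10 to 1.28), 1.67 in C5 (1.59 to 1.75) and -0.90 in C4 (-1.02 to -0.78). Akh, the hormone gene, ran the other way in C5, at 1.76 CPM against 4.19 CPM in the control, a log2 ratio of -1.25 (-1.55 to -0.96). In the other strains it lay between 2.35 CPM (C1) and 4.35 CPM (C4).

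**Figure D2:**
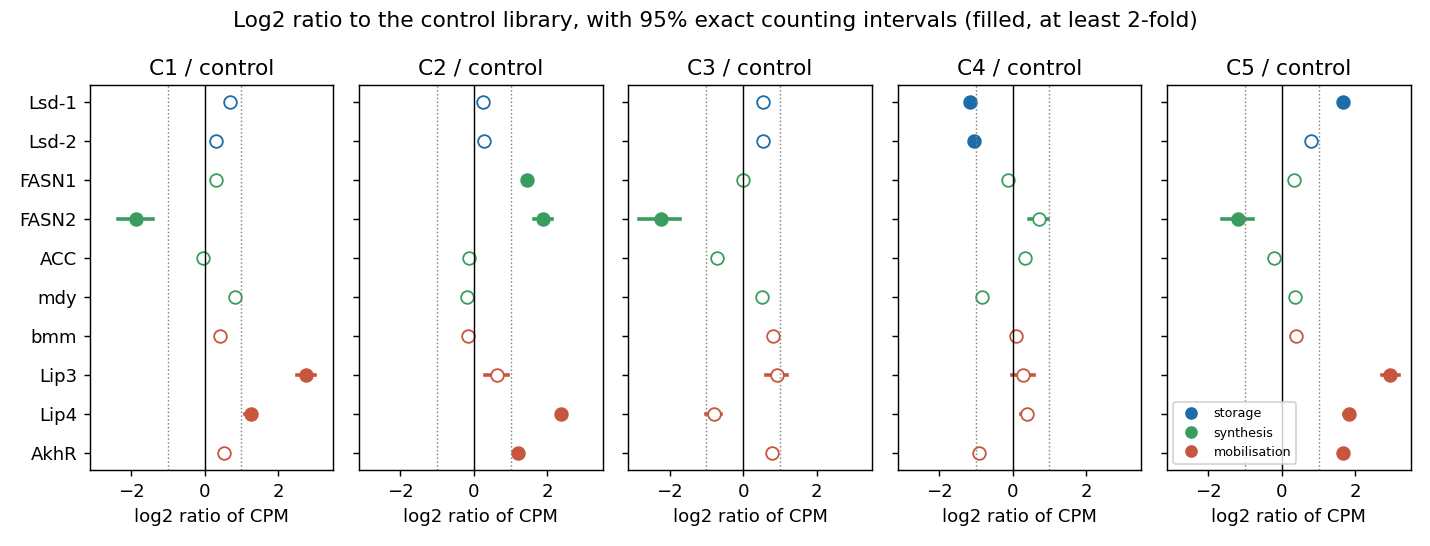
Log2 ratio of CPM to the control library (horizontal axis) for each lipid gene (rows) in C1 to C5 (panels), coloured by role; bars are exact 95% binomial intervals of counting error, dotted lines mark 2-fold, and filled points are at least 2-fold with an interval that excludes no difference. C2 and C5 have 4 filled points to the right, C3 has none to the right, and the filled points of C4 are the perilipins, at -1.16 and -1.05.

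Counted by a rule of size, at least 2-fold with an interval that excludes 1, the 5 strains differed in which lipid genes stood away from the control. All 5 comparisons share that control library. In C1, 2 of the 10 genes were higher (Lip3 and Lip4), against 5.10% of all measured genes, and 1 was lower (FASN2), against 18.0%. In C2, 4 were higher (FASN1, FASN2, Lip4 and AkhR), against 8.94% of all genes, and 0 lower, against 20.0%. In C3 none was higher, against 6.02%, and 1 was lower (FASN2), against 21.8%. In C4 none was higher, against 8.97%, and 2 were lower (Lsd-1 and Lsd-2), against 3.16%. In C5, 4 were higher (Lsd-1, Lip3, Lip4 and AkhR), against 4.83%, and 1 was lower (FASN2), against 18.6%.

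The C4 calls were close to the threshold. Plain CPM, which moves the median of all genes by 0.12 in C4, gave Lsd-1 a log2 ratio of -1.03 and Lsd-2 one of -0.93, and scaling on ribosomal protein genes, which moves it by 0.41, gave -0.74 and -0.64. In C2 the AkhR ratio of 1.19 became 0.89 with plain CPM, 0.92 with ribosomal protein scaling and 0.87 from the authors' RPKM. The calls of FASN1, FASN2, Lip3 and Lip4, and those of Lsd-1 and AkhR in C5, held with plain CPM, ribosomal protein scaling and RPKM.

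C4 and the control were the libraries with male germline RNA, and under TMM scaling 6 of the 10 genes separated them from the rest. Lsd-1, Lsd-2, FASN1, Lip3 and AkhR were higher in all 4 other libraries than in C4 and the control, a pattern of 18.6% of all measured genes. ACC was lower in each of the 4, as were 26.9% of all genes. FASN2, mdy, bmm and Lip4 overlapped. The separation depended on the scaling: of the 5 higher genes AkhR alone was left with plain CPM (against 4.58% of all genes), with ribosomal protein scaling (2.95%), with the authors' RPKM (4.23%) and per fat body marker (0.353%), and ACC was not separated with ribosomal protein scaling. For FASN1 under TMM the gap was 76.7 CPM in C3 against 76.4 CPM in the control, within counting error, and for ACC 60.7 CPM in C1 against 62.0 CPM in the control, also within it. The sex makeup of the larvae and the newt gene cannot be told apart in these comparisons. In the comparison of C4 both libraries held male germline RNA, 2693 CPM in C4 and 1258 CPM in the control. Leaving the 15 male germline markers out of the TMM scaling moved no log2 ratio outside its counting interval. As this removed 15 of 16196 genes and shifted the ratios by -0.0006 (C5) to -0.0002 (C3 and C4), it cannot show how far male germline RNA affects the scaling.

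Mobilisation genes stood higher relative to the control than storage and synthesis genes did, taking medians over each class, a difference that was not tested. The median log2 ratio over Lip3, Lip4, bmm and AkhR was between 0.79 and 0.90 for C1, C2 and C3, 0.19 for C4 and 1.75 for C5. For the 6 storage and synthesis genes it was between 0.25 and 0.35 for C1, C2, C3 and C5 and -0.48 for C4, where the medians of all measured genes ran from -0.03 to 0.06. Storage and synthesis minus mobilisation thus came to -0.59 for C1, -0.65 for C2, -0.54 for C3, -0.66 for C4 and -1.40 for C5, all against the same control library. Without the receptor AkhR the difference ranged from -1.49 (C5) to -0.36 (C2). The classes were mixed inside: in C2 the lipase genes bmm and Lip4 lay at -0.15 and 2.38, and in C1 the synthesis genes FASN2 and mdy at -1.87 and 0.84.

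Under TMM scaling the perilipins, FASN1, mdy and AkhR lay on the same side of the control as the fat body markers in C4 and C5. Summed, those markers were at 0.556 of the control in C4 and 1.60 of it in C5. Lsd-1 was at 0.449 and 3.18, Lsd-2 at 0.484 and 1.72, FASN1 at 0.919 and 1.26, mdy at 0.563 and 1.29 and AkhR at 0.535 and 3.18. ACC (1.26 and 0.868) and FASN2 (1.64 and 0.433) lay on the other side in both strains. bmm (1.06), Lip3 (1.22, within counting error) and Lip4 (1.31) were above the control in C4, as they were in C5. The C4 log2 ratio of FASN1, -0.12 under TMM, was 0.0005 with plain CPM and 0.29 with ribosomal protein scaling. The 8 fat body markers did not all share the difference of their sum. Their median log2 ratio was -0.30 in C4, 0.75 in C5 and 1.03 in C2, where the sum gave -0.85, 0.68 and 0.66. The most abundant markers weigh most in the sum, such as Fbp1 at 23660 CPM in C4 and 40610 CPM in the control. In C4 2 of them were at least 2-fold lower and 6 were not, and in C5 3 were at least 2-fold higher and 5 were not. In C2, where the markers were at 1.58 of the control, Lsd-1 was at 1.19, mdy at 0.878 and AkhR at 2.28 of it. Expressed per fat body marker count, a scaling added after the data were seen, the C4 log2 ratio was -0.31 for Lsd-1, -0.20 for Lsd-2, 0.02 for mdy and -0.06 for AkhR, all under 2-fold. FASN1 changed sides on that scale, to 0.73 in C4 and -0.35 in C5, and mdy came to -0.30 in C5. On that scale ACC, FASN2, Lip3 and Lip4 were at least 2-fold higher in C4, at 1.18, 1.56, 1.14 and 1.24. The share of all genes passing 2-fold on that scale was not counted. In C5 Lsd-1 and AkhR stood just under 2-fold at 0.99 each, while Lip3 (2.28) and Lip4 (1.16) remained above it and FASN2 (-1.88) below. In C1 Lip4 came to 0.81, under 2-fold, and Lip3 to 2.32. In C2 FASN1 came to 0.77, AkhR to 0.53, Lsd-1 to -0.41, mdy to -0.85 and bmm to -0.81, and FASN2 and Lip4 stayed at least 2-fold higher at 1.23 and 1.72. The 8 markers are themselves storage and transport proteins of the fat body, and this scaling shifts every log2 ratio, by -0.45 for C1, -0.66 for C2, -0.04 for C3, 0.85 for C4 and -0.68 for C5.

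**Figure D3:**
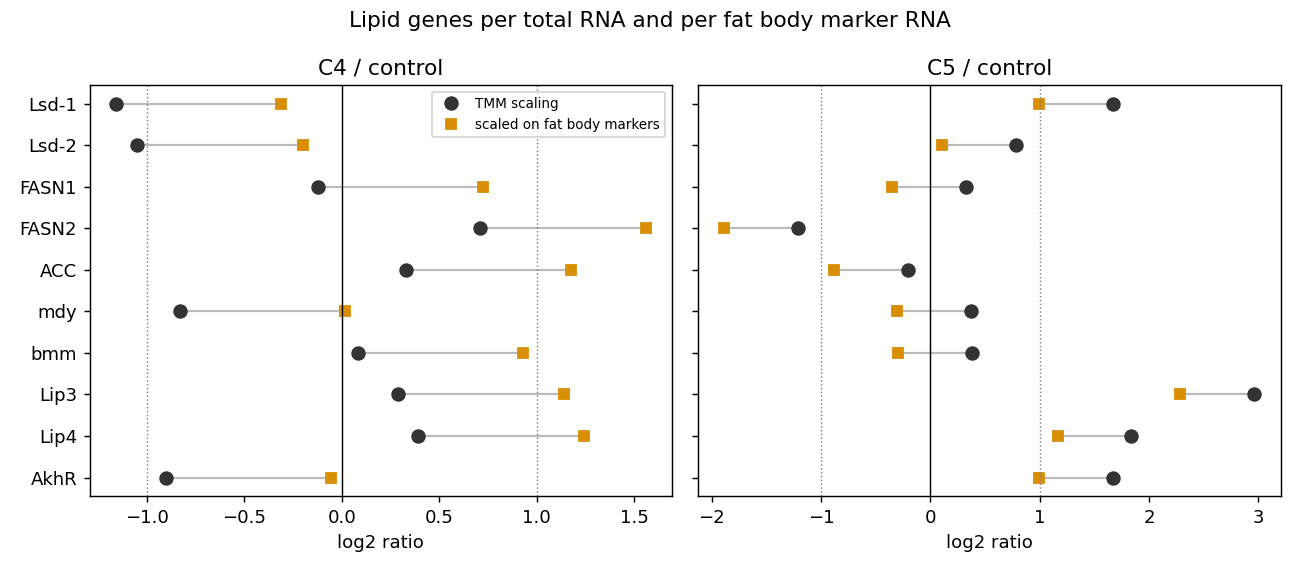
Log2 ratio to the control of each lipid gene (rows) in C4 and C5 (panels), on TMM-scaled totals (circles) and per summed count of 8 fat body marker genes (squares); dotted lines mark 2-fold, and each point is 1 library over 1 library. In C4 the perilipin circles at -1.16 and -1.05 lie left of the dotted line and their squares at -0.31 and -0.20 do not.

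The transcripts of a gene did not always share its difference. Expected counts per transcript are the authors' division of reads among overlapping isoforms, and no interval is given for them. For Lsd-2 the transcript NM_001298332 held 23.5% of the gene's counts in C3, between 7.25% (C4) and 13.0% (C5) in the other strains, and 14.0% in the control. Its level was 90.9 CPM in C3 and 9.32 CPM in C4, against 37.2 CPM in the control, and it made up 44.5% of the C3 difference in Lsd-2. Lsd-1 had 1 dominant transcript, NM_001275954, with 94.6% to 97.9% of its counts in every library, and bmm likewise, NM_001169974 with 91.1% to 96.8%.

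FASN1 and ACC showed the same kind of shift. The FASN1 transcript NM_001144306 held 60.5% of the counts in C2 and 47.4% in the control, and between 35.3% (C5) and 52.0% (C3) elsewhere. It was 3.45-fold higher in C2 than in the control, the other transcript, NM_134904, 2.03-fold, and it made up 68.2% of the difference. In C3 the ACC transcript NM_001299248 stood at 9.68 CPM against 28.7 CPM in the control, 79.2% of the whole ACC difference, while NM_001103757 stood at 12.2 CPM against 11.5 CPM in the control. For FASN2, NM_139356 held 89.2% of the counts in C4 and 78.1% in the control, but between 45.9% and 60.9% in C1, C2, C3 and C5, over few counts in 3 of them.

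**Figure D4:**
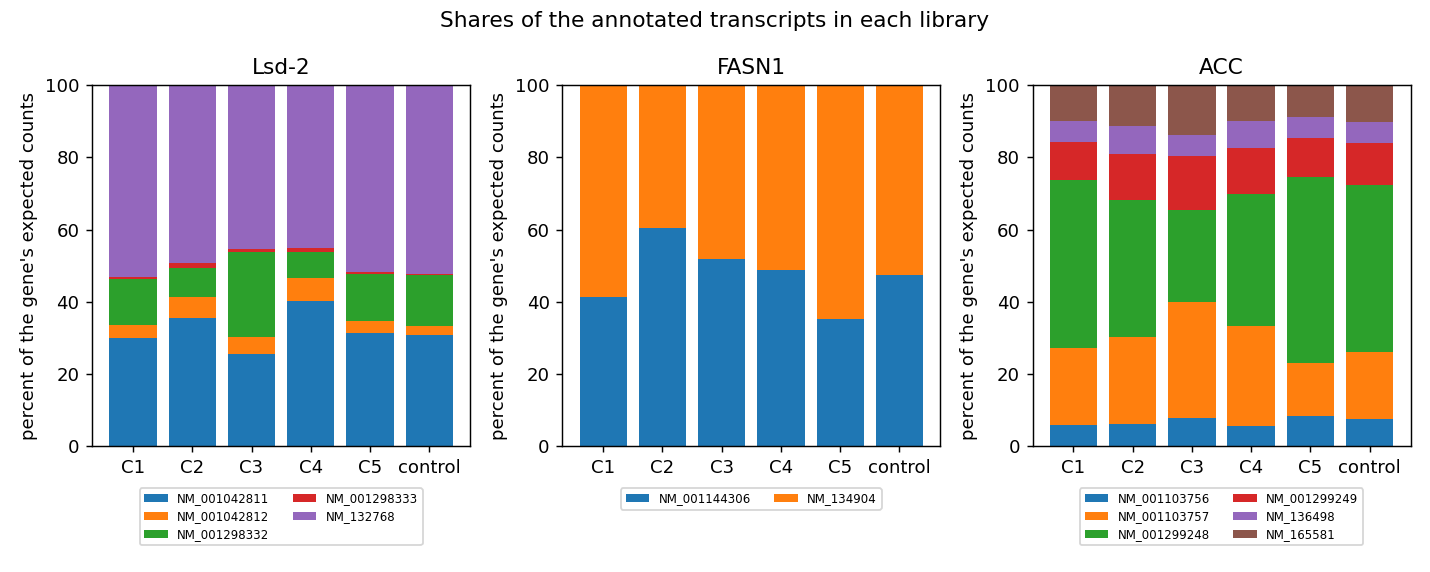
Share of each annotated transcript in the expected counts of Lsd-2, FASN1 and ACC (vertical axis, percent of the gene's counts) in C1 to C5 and the control. NM_001298332 of Lsd-2 is widest in C3 (23.5%), NM_001144306 of FASN1 in C2 (60.5%), and NM_001299248 of ACC narrowest in C3 (25.5%).

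Other genes of the pathway were read from lists that name them by function. Among 10 measured lipolysis and lipase genes, 5 passed the same rule upwards in each of C1, C2 and C5, 2 in C3 and 3 in C4, where the shares of all measured genes were 5.10% in C1, 8.94% in C2, 4.83% in C5, 6.02% in C3 and 8.97% in C4. None was lower in C1, 1 was in C2 and C5 and 2 were in C3 and C4, beside 18.0%, 20.0%, 18.6%, 21.8% and 3.16% of all genes in C1, C2, C5, C3 and C4. The median log2 ratio ran from 0.26 (C4) to 1.30 (C5). Summed midgut markers were at 2.36, 1.14, 1.16, 0.747 and 2.21 times the control in C1 to C5. In C2, though, 4 of the 8 midgut markers were at least 2-fold higher and 0 lower. Their median log2 ratio was 1.30 in C2, beside 1.48 in C1 and 1.45 in C5. The part of the midgut in the result was not tested. mag (magro), a lipase made in the gut, stood at 106 CPM in C1, 110 in C2, 40.3 in C4 and 66.0 in C5, against 15.8 CPM in the control. CG6283 stood at 187 CPM in C5 and 3.20 in C4, against 43.6 CPM in the control, and CG8093 at 65.7 CPM in C5 against 6.91 CPM in the control. CG6271 stood at 8.04 CPM in C5 against 0.0543 CPM in the control, a log2 ratio with an interval of 5.98 to 8.84. It was called higher in every strain and reached the mean CPM of 1 only through libraries where it was called, so its calls partly follow from that filter. Hsl, the hormone-sensitive lipase of fat body droplets, stayed between 37.7 and 46.3 CPM in all 5 strains, against 40.6 CPM in the control.

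Of 10 lipoprotein and uptake genes, 3 were at least 2-fold higher in C5 (4.83% of all genes were), 2 in C2 (8.94%), 2 in C3 (6.02%), 1 in C1 (5.10%) and 0 in C4 (8.97%). 1 was lower in C3 (21.8% of all genes) and in C4 (3.16%). Those higher in C5 were apolpp, the lipophorin precursor that carries lipid in the blood and also 1 of the fat body markers (3517 CPM against 628 CPM in the control), Mtp, which loads it (131 CPM against 59.0 CPM in the control), and the lipophorin receptor gene LpR1 (38.6 CPM against 19.2 CPM). Of 16 fatty acid oxidation genes, 3 were higher in C2 (8.94% of all genes), 2 in C5 (4.83%), 1 in C1 (5.10%), 0 in C3 (6.02%) and 0 in C4 (8.97%), and none was lower in any of the 5, where 3.16% (C4) to 21.8% (C3) of all genes were. Acox57D-p, a peroxisomal acyl-CoA oxidase gene, was at 24.9 CPM in C1, 28.9 in C2 and 25.9 in C5, against 12.0 CPM in the control. The list median was 0.61 in C5 and -0.32 in C4, beside summed fat body markers at 1.60 and 0.556 of the control, whose part in it was not tested.

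Among 7 measured genes of triacylglycerol synthesis other than mdy, 2 were higher in C1 (5.10% of all genes), 1 in C3 (6.02%) and 1 in C5 (4.83%), and 2 were lower in C2 (20.0%). mino, the mitochondrial glycerol-3-phosphate acyltransferase, was at 58.4 CPM in C2 and 265 in C3, against 129 CPM in the control. Agpat2 was at 54.6 CPM in C1 and 12.1 in C2, against 25.2 CPM in the control, and Dgat2 at 2.14 CPM in C1 and 2.24 in C5, against 0.565 CPM in the control. In C2, C3 and C4 Dgat2 lay between 0.374 and 0.777 CPM. It reached the mean CPM of 1 only through C1 and C5, so its calls there partly follow from that filter. Dgat2 was 1 of the 2 calls in C1 and the only call in C5. Of 13 fatty acid synthesis genes and regulators, none passed in C1, C2 or C5, and 1 was higher and 1 lower in C3 (6.02% and 21.8% of all genes) and in C4 (8.97% and 3.16%), the same pair in opposite directions. sug (sugarbabe), a sugar-responsive factor that acts on lipogenic genes, was at 75.0 CPM in C3 and 8.82 in C4, against 19.1 CPM in the control. Men, the malic enzyme, which supplies NADPH, was at 26.1 CPM in C3 and 201 in C4, against 81.0 CPM in the control. SREBP, the sterol-response factor of lipogenesis, was at 101 to 158 CPM in the 5 strains and 103 CPM in the control.

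Of 9 droplet genes other than the perilipins, 1 was higher in C1 (5.10% of all genes), 1 in C3 (6.02%) and 1 in C4 (8.97%). 2 were lower in C2 (20.0% of all genes) and 1 each in C1 (18.0%), C3 (21.8%) and C5 (18.6%), near the shares of all genes. The lower gene in C1, C3 and C5 was Pcyt2, a phospholipid synthesis gene, at 2.59 to 3.91 CPM in C1, C2, C3 and C5 and 58.0 CPM in C4, against 27.9 CPM in the control, the same split as the male germline markers. NLaz, a secreted lipocalin, was at 178 CPM in C1, 13.0 in C2 and 265 in C3, against 84.4 CPM in the control. Jabba, another droplet protein, was at 78.7, 81.9, 99.2, 32.7 and 83.8 CPM in C1 to C5 and 56.1 CPM in the control. Among 14 genes of adipokinetic hormone signalling, Akh, lower in C5 (18.6% of all genes were), alone passed the rule. Of 12 insulin and starvation response genes, 4 were higher in C2 (tobi, CCHa2 and the insulin-like peptide genes Ilp2 and Ilp5), beside 8.94% of all genes. In C3 1 was (Gbp1, beside 6.02%), in C4 1 was (beside 8.97%), and none was lower in any strain. The C4 gene was tobi, a glucosidase gene known as a target of insulin and adipokinetic hormone signalling, at 18.5 CPM against 2.36 CPM in the control. Thor, the translation inhibitor that starvation raises, lay between 667 CPM (C3) and 1345 CPM (C2) in the strains, against 1128 CPM in the control.

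**Figure D5:**
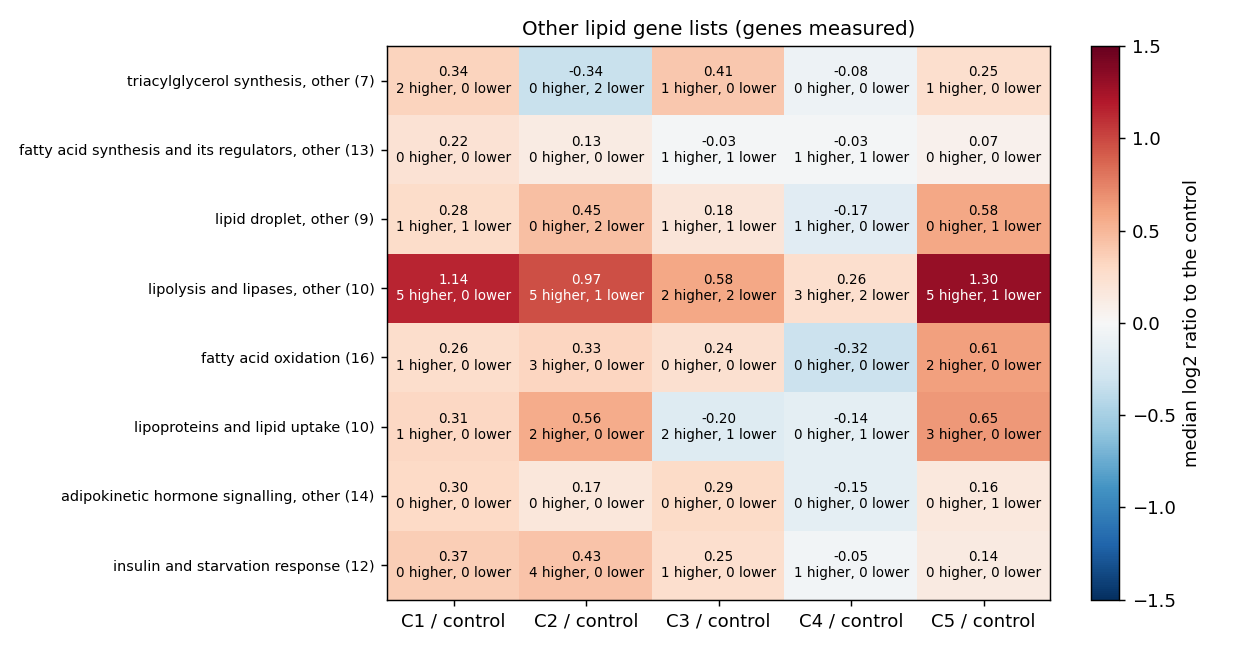
Median log2 ratio to the control (colour and upper number) and number of genes at least 2-fold higher and lower (lower line) for 8 lists of other lipid and nutrient genes (rows, with the number of measured genes) in C1 to C5 (columns). The lipolysis and lipase list has the highest medians, 1.30 in C5 and 1.14 in C1.

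The levels of some genes varied across the 6 libraries much as those of a lipid gene did, though not always in the same order of libraries. Likeness was measured by Pearson's r of log2(CPM + 1) among 3696 genes. These had a mean CPM of at least 5 and a range of log2(CPM + 1) of at least 1. With so few libraries, all sharing their depth and tissue makeup with the gene they are set beside, high values of r are common, and they are given as descriptions. Closest to Lsd-1 were Mal-A6 (r = 0.99), yip2 (0.99) and Fbp1 (0.98), the last 1 of the fat body markers, at 66920 CPM in C5 and 23660 in C4, against 40610 CPM in the control. Closest to Lsd-2 were CG13607, CG3376 and CG14629, to mdy CDase, CtsB and GATAe, and to bmm CG11899, sano and Cpr66D. AkhR was most like Amacr (0.99), scu (0.99) and CG33460 (0.98), and Lip4 most like rngo, CG34436 and TpnC73F. For FASN1 they were para, CG8206 and corn, for FASN2 Prx6c, Men-b and Pfk (r of 0.95 to 0.96), for ACC ATP8A, Sec71 and CG34325, and for Lip3 CG3868, Cyp6a14 and CG34112.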

How the data were processed

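Total RNA of whole larvae was made into stranded libraries after ribosomal RNA removal and sequenced in pairs, per the labels' protocols. Per the submitters' processing notes, bcl2fastq, TopHat and Partek were used with build dm6; versions, the program that counted and its strand setting remain not given in the sources used here. The authors deposited, per library, expected counts (estimated reads per RefSeq transcript, unscaled) and RPKM values, over 34966 transcripts. Of these, 33027 matched 1 of 16196 genes of the Release 6 RefSeq annotation, the dm6 assembly. Strand and overlaps come from the Ensembl annotation of the same assembly. Counts were summed per gene, rounded and scaled with TMM (edgeR 4.0.16, R 4.3.3). A gene was measured if its mean CPM reached 1 (11599 genes). A library under 3 counts took a floor of 3 for its fold. Intervals are exact 95% binomial (Clopper-Pearson) intervals of the ratio of 2 libraries. With 1 library per genotype no test was run. RPKM values, as deposited, served to compare genes and as an alternative. The members and lists were chosen with earlier results of these data known. Named were all 10 members, up to 3 genes per list and strain with the largest differences, and the 3 genes most like each member. Hsl, Jabba, SREBP, Thor and Akh beyond C5 were named after their values were seen. No sequences are shown.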

Additional observations from a re-analysis of the deposited data

How the results depend on the processing

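DESeq2 1.42.0 size factors kept 42 of the 50 log2 ratios of the 10 genes inside their counting intervals. TMM without the 15 male germline markers, too few genes to move the scaling, kept 50. Plain CPM kept 10, ribosomal protein scaling 12, the authors' RPKM 10 and fat body scaling 9. None of the ratios called at least 2-fold changed sign under any of these 6 settings. Plain CPM shifted all log2 ratios by between -0.30 (C2) and 0.12 (C4), and ribosomal protein scaling by between -0.27 (C2) and 0.41 (C4). The number of the 10 genes lower in C4 was 1 with plain CPM and 1 with RPKM, in place of 2, and 0 with ribosomal protein scaling, where 1 was higher. Scaled on fat body markers, 1 was higher in C1, 2 in C2, 4 in C4 and 2 in C5, and 0 lower in C4. That scaling raised all log2 ratios in C4 by 0.85, and the share of all genes passing 2-fold under it was not counted. Of the 5 genes higher in all of C1, C2, C3 and C5 than in C4 and the control, 1 was left with plain CPM, 1 with ribosomal protein scaling (where 0 were lower, in place of 1), 1 with RPKM and 1 with fat body scaling, settings applied to this split after the data were seen. At a threshold of 1.5-fold, 4 were higher in C1, 3 higher and 3 lower in C3, and 1 higher and 4 lower in C4. Of the 11599 measured genes that threshold gave 1477, 1768, 1629, 2543 and 1335 higher in C1 to C5. It gave 3122 of them lower in C3 and 913 in C4. Without the filter on low counts 3252 were lower in C1, 3331 in C5 and 562 in C4, and 1049 were higher in C3 and 1739 in C4. At a mean CPM of at least 5, 1165, 1354, 1480 and 1211 were lower in C1, C2, C3 and C5, and 597 higher in C4. With plain CPM 1562 were higher in C4 and 344 in C5, and the higher genes made up 84.5% of the C4 calls in place of 74.0%. Storage and synthesis minus mobilisation, which no scaling changes, was -0.95 in C1 and -0.36 in C2 without AkhR, in place of -0.59 and -0.65. Counts are lowest for FASN2 (33 to 510) and Lip3 (168 to 1065), whose intervals are widest. No paired analysis was possible because each genotype has 1 library. For the same reason no library could be left out.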
